A study of Mus musculus with 8 samples.

Results

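Expression of 10 genes, called the members here, was followed in the nucleus accumbens of mice given morphine or saline: Arc, Npas4, Homer1, Plk2, Nptx1, Nptx2, Bdnf, Ntrk2, Vgf and Inhba. They are genes that neurons switch on with activity and whose products act at synapses, together with the neurotrophin BDNF and its receptor. They were picked by gene symbol from the 22337 genes of the expression table, and each symbol matched 1 Ensembl identifier. The samples were 4 libraries from saline-treated and 4 from morphine-treated male C57BL/6 mice, with no other allele or agent named in the labels. The series addresses how chronic morphine, an opioid agonist, changes the transcriptome of this ventral striatal reward region. The sources used here do not give dose, schedule, age or the time from last injection to dissection. Nor do the labels say whether each library came from its own animal, so the spread behind each p-value is that between libraries and may be technical.

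Synaptic activity raises calcium in the neuron, and calcium-dependent kinases then act on transcription factors such as CREB. Arc and Npas4 are among the first genes to respond. Arc protein helps remove AMPA-type glutamate receptors from synapses, whereas the pentraxins Nptx1 and Nptx2, secreted at synapses, gather them. BDNF acts on the receptor TrkB, the product of Ntrk2. In the striatum much of the BDNF protein arrives along axons from cortex, where its mRNA is made, and striatal projection neurons contain little Bdnf mRNA.

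Promoters are shown first, because calcium signals reach several of these genes through the cAMP response element (CRE), the site that CREB binds. RefSeq promoter windows (build GRCm38.p6, 250 bases before to 50 after a transcript start) were matched for 6 of the 10 members, Bdnf, Homer1, Inhba, Npas4, Ntrk2 and Plk2, with 13 windows in all, 7 of them for Bdnf. They were not matched for Arc, Nptx1, Nptx2 and Vgf. Both strands were searched for the CRE (TGACGTCA), its half-site (TGACG, which is also contained in the full CRE), AP-1 (TGANTCA), the TATA box (TATAAA), Egr (GCGTGGGCG or GCGGGGGCG) and the CArG box of serum response factor. The stretches below lie upstream of the start, on the strand of the gene, and capitals mark every match in them.
Plk2 (chr13:110394944-110395043, plus strand): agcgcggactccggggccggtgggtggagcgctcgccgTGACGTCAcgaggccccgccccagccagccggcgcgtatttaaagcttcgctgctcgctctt
Homer1 (chr13:93303657-93303756, plus strand): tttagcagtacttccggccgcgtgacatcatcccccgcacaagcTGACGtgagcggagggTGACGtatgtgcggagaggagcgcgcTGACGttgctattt
Bdnf (chr2:109692336-109692435, plus strand): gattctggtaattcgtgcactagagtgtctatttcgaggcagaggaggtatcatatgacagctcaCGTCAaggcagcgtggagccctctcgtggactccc
Npas4 (chr19:4989972-4990171, minus strand): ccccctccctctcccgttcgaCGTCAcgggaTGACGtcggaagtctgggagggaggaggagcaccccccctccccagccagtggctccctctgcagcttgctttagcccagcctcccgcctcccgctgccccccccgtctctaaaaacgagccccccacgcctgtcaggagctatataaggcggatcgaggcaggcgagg
Inhba (chr13:16011751-16011850, plus strand): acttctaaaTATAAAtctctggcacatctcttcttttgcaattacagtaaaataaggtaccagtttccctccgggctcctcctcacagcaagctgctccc

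The Plk2 window held the full CRE, which 1.79% of all 32851 windows hold, beginning 62 bases before the start. CRE half-sites were found in 4 of the 13 windows, 1 each of Plk2, Homer1, Bdnf and Npas4, and in 20.8% of all windows. Counted by gene, they were in 4 of the 6 matched members and in 23.0% of all genes with a window. These 2 shares are not like for like. The 6 members had 13 windows and all 27025 genes had 32851, so the members had more windows per gene in which to match. Homer1 had 3 of them, at 56, 40 and 14 bases before 1 of its 2 starts, and Npas4 had 2. For Bdnf the half-site lay in the third of the 7 windows by position. A TATAAA match was found in the Inhba window only, and in 13.6% of all windows. One further Bdnf window held an AP-1 match (7.81% of all windows). No CArG or Egr match was found in these 13 windows. A match of letters is a description and not a bound site.

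Expression was deposited as FPKM, which divides the fragments of a gene by its transcript length and by the size of the library, so levels can be set side by side per unit of length. The values of a library summed to between 480004 and 540104, the depth in reads is unknown, and 12287 to 12655 genes reached an FPKM of 1. Mitochondrially encoded transcripts made up 9.09 to 12.6% of the saline sums and 6.09 to 7.94% of the morphine sums. All 20 listed markers of striatal projection neurons were tested. Their mean level was 6.92 on the log2 scale in saline replicate 3, 4.62 to 4.93 in the other saline libraries and 2.78 to 3.35 in the morphine libraries. Of the 20, 13 were lower with morphine, and 17 when saline replicate 3 was left out. Of 14 tested markers of cortical glutamatergic neurons 1 was higher with morphine, and 2 when that library was left out. The cortical list had a mean level of 2.44 in saline replicate 3, 3.72 to 3.82 in the other saline libraries and 3.94 to 4.12 in the morphine libraries. In bulk tissue fewer cells of a type and less RNA per cell cannot be told apart. No listed marker of 7 cell classes, interneurons, glia and vessels included, was at 0 in any library. Saline replicate 3 thus stood apart from all other libraries in both lists, and values without it are given below beside the results that it moved most.

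Of the 10 members, Ntrk2 had the highest mean FPKM over the 8 libraries, followed by Plk2, Nptx1, Arc, Vgf, Nptx2, Homer1, Inhba, Bdnf and Npas4. Only Ntrk2 was separated from its neighbour in that order: its lowest value (171.2) lay above the highest of Plk2 (148.7). All other neighbours overlapped across the libraries. All 10 passed the filter of 1 FPKM in at least 4 libraries, but Npas4 did so with 4 morphine libraries and only 1 saline library, so its passing leaned on the group in which it was higher.

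Arc rose with morphine, and it was the only member to pass the test over all 8 libraries. In all, 9 members had a positive and 1 a negative log2 change (median 0.43, against 0.01 for all 12536 tested genes). Of all tested genes 52.0% had a positive change. The members were chosen with earlier results of these data known, so this count is a description and not a test. Their signs are also not independent, since Bdnf, Nptx1 and Nptx2 share a low value in saline replicate 3. Differences are log2(FPKM + 1), morphine minus saline, from limma with Benjamini-Hochberg adjustment over all tested genes. At an adjusted p under 0.05 limma called 316 genes (2.52% of those tested), 1.04% higher and 1.48% lower; higher calls were 41.1% of the calls, and 21.5% after mitochondrially encoded genes were removed. No member fell, and 2 members, Arc and Inhba, both higher, had an unadjusted limma p under 0.05, as did 20.1% of tested genes. Calls over all genes leaned on single libraries: leaving out saline replicate 2, or either of morphine replicates 3 and 4, left limma with 0 called genes (1953 to 2136 by unadjusted p under 0.05). When saline replicate 3 was left out, Arc and Plk2 passed, both higher, as did 0.965% of tested genes in that fit, and the median change of the members was 0.35.

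**Figure D1:**
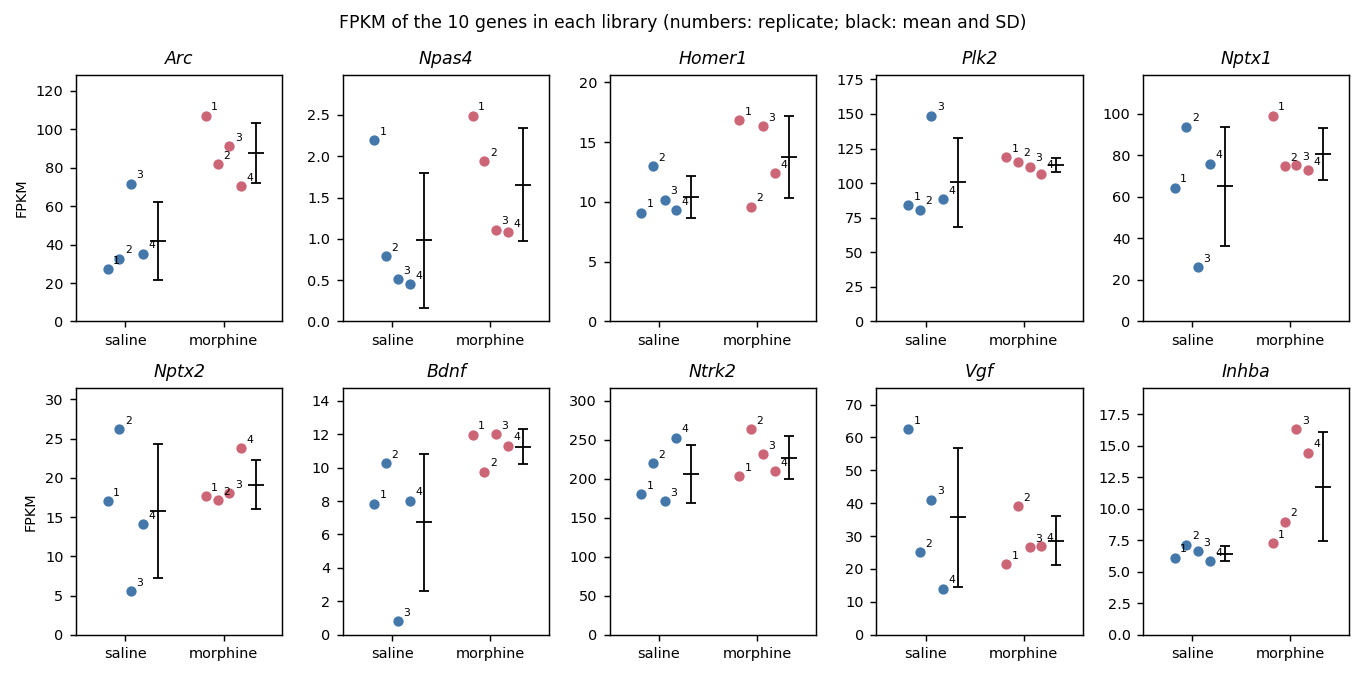
FPKM of each member (vertical axes, starting at 0) in the 4 saline and 4 morphine libraries; points are libraries numbered by replicate, and black bars give the mean and SD of the group. Arc and Inhba sit higher in the morphine libraries, while saline replicate 3 is far below the other libraries for Bdnf, Nptx1 and Nptx2 and above all of them for Plk2.

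Arc (ENSMUSG00000022602, chromosome 15, 74669083 to 74672570, minus strand, GRCm38) had FPKM of 27.2, 32.7, 71.7 and 35.4 in saline replicates 1 to 4 and 107.1, 82.0, 91.1 and 70.5 in morphine replicates 1 to 4. Saline replicates 1, 2 and 4 did not exceed 35.4 and lay under every morphine value, and saline replicate 3 lay just above morphine replicate 4, so the groups overlapped through that library alone. The means were 41.7 ± 20.3 and 87.7 ± 15.4 (SD, n = 4 each), a ratio of 2.10. The log2 change was 1.14 ± 0.26 (SE) with a limma adjusted p of 0.0481, close to the threshold. Without saline replicate 3 the saline mean was 31.7 ± 4.17 (SD, n = 3), the ratio 2.76 and the log2 change 1.43 ± 0.15 (SE; adjusted p = 0.00468 from limma). Leaving out any other single library, of either group, ended that call, with log2 changes from 0.97 to 1.24 and limma adjusted p-values from 0.0736 to 0.139.

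The gene whose centred log2 profile over the 8 libraries lay closest to Arc, among 8884 other genes with a mean FPKM of at least 5, was Fos, an immediate early transcription factor gene (root mean square distance 0.24 on the log2 scale). Junb, which encodes a Fos partner, was the next (0.29). Fos had 13.5, 14.2, 25.4 and 20.9 FPKM in saline and 40.3, 45.6, 43.5 and 37.4 in morphine, with no overlap between the groups. The ratio of Arc to Fos FPKM ran from 1.69 to 2.83 in saline and from 1.80 to 2.66 in morphine, so the ranges of this ratio overlapped. Since Fos was the closest profile over these same libraries, that overlap follows in part from the closeness and is not a separate test. Saline replicate 3 held the highest saline value of Arc, Fos and Junb alike.

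Npas4 (ENSMUSG00000045903, chromosome 19, 4984355 to 4990316, minus strand), a neuron-specific transcription factor gene that responds to calcium influx and controls Bdnf among other targets, was the least abundant member. Its FPKM was 2.19, 0.790, 0.510 and 0.450 in saline and 2.49, 1.94, 1.11 and 1.08 in morphine. The groups overlapped because saline replicate 1 exceeded 3 of the morphine libraries. The log2 change was 0.46 (95% interval -0.13 to 1.06) and Npas4 did not pass (limma adjusted p = 0.37). Across the fits that leave out 1 library the change ran from 0.32 without morphine replicate 1 to 0.72 without saline replicate 1. Npas4 passed in none of them (limma adjusted p from 0.108 to 0.613). Since saline replicate 1 held the highest saline value, leaving it out had to raise the change, and that fit is no separate support. With values this near an FPKM of 1, the added pseudocount shrinks the change: with a pseudocount of 0.1 it was 0.87.

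Homer1 and Plk2 act inside the spine. Homer1 (ENSMUSG00000007617, chromosome 13, 93299635 to 93405129, plus strand) encodes the scaffold that ties metabotropic glutamate receptors to calcium stores and Shank, and its short activity-induced form breaks those ties. GENCODE lists 11 coding transcripts for it, and a gene-level FPKM does not separate the short from the long forms. Its FPKM was 9.11, 13.0, 10.2 and 9.31 in saline and 16.8, 9.59, 16.3 and 12.4 in morphine. Morphine replicates 1 and 3 lay above all saline libraries, and morphine replicates 2 and 4 lay within the saline range. The log2 change was 0.36 (95% interval -0.05 to 0.76; limma adjusted p = 0.311).

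Plk2 (ENSMUSG00000021701, chromosome 13, 110395046 to 110400844, plus strand), a kinase that is induced by activity and weakens overactive synapses by removing a spine protein, had 84.2, 80.8, 148.7 and 88.5 FPKM in saline and 118.8, 115.4, 111.8 and 106.8 in morphine. The highest and the 3 lowest of the 8 values were all saline. With all libraries the log2 change was 0.21 ± 0.18 (SE; limma adjusted p = 0.537). Without saline replicate 3 no values overlapped, the means were 84.5 ± 3.88 (SD, n = 3) and 113.2 ± 5.11 (SD, n = 4), and Plk2 rose by 0.42 ± 0.09 (log2, SE; limma adjusted p = 0.0475). Leaving out saline replicate 2 gave 0.13. The direction was the same in these fits, and the call rested on that 1 library. The closest profiles to Plk2, those of the zinc finger genes Zfp579 and Zbtb7a (distances 0.07 and 0.09), also had their highest value in saline replicate 3.

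The pentraxin genes had like profiles across libraries, and neither separated the groups. Nptx1 (ENSMUSG00000025582, chromosome 11, 119538719 to 119547753, minus strand) had 64.4, 93.7, 26.1 and 75.9 FPKM in saline and 99.0, 74.7, 75.1 and 72.8 in morphine. Nptx2 (ENSMUSG00000059991, chromosome 5, 144545902 to 144557478, plus strand), also known as Narp, had 17.0, 26.2, 5.52 and 14.1 in saline and 17.6, 17.1, 18.02 and 23.8 in morphine. In both, saline replicate 3 was the lowest of the 8 libraries, and the other saline libraries spanned the morphine values or most of them. Of the 45 pairs of members this was the pair with the closest profiles (distance 0.26). The log2 change was 0.43 for each, with 95% intervals of -0.28 to 1.14 for Nptx1 and -0.34 to 1.2 for Nptx2 (limma adjusted p = 0.492 and 0.532). The changes were 0.05 (interval -0.29 to 0.39) and 0.04 (interval -0.40 to 0.47) without saline replicate 3, and 0.65 and 0.72 without saline replicate 2.

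**Figure D2:**
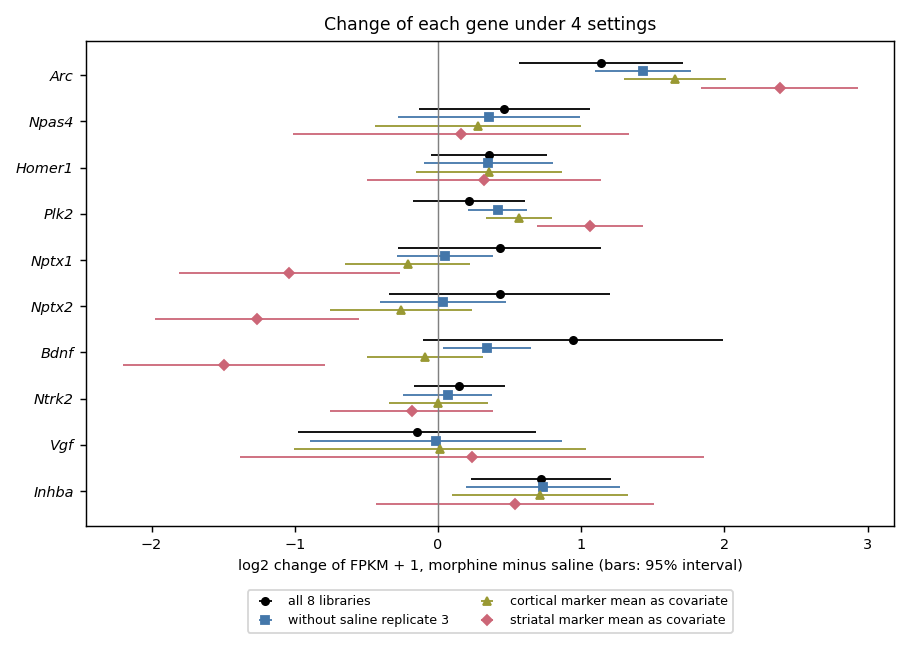
Log2 change of FPKM + 1 (horizontal axis, morphine minus saline) of each member with its 95% interval, for all 8 libraries, without saline replicate 3, and with the mean level of cortical or of striatal markers as a covariate. Arc stays above 0 in the 4 settings, while the points of Bdnf, Nptx1 and Nptx2 move from above to below 0 when either marker mean is included. The groups do not overlap in either marker mean, so the covariate settings compare them at marker levels they do not share.

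Bdnf (ENSMUSG00000048482, chromosome 2, 109674700 to 109727007, plus strand), the neurotrophin gene, had 7.83, 10.3, 0.820 and 8.03 FPKM in saline and 11.96, 9.75, 12.01 and 11.3 in morphine. In 3 of 4 morphine libraries Bdnf exceeded every saline library, and morphine replicate 2 lay below saline replicate 2. The means were 6.74 ± 4.10 and 11.3 ± 1.05 (SD, n = 4 each), and Bdnf did not pass (log2 change 0.94, 95% interval -0.10 to 1.99; limma adjusted p = 0.296). In saline replicate 3 Bdnf was 10.6 times lower than the mean of the other saline libraries. Without that library the saline mean was 8.71 ± 1.35 (SD, n = 3) and the change 0.34 ± 0.14 (SE; limma adjusted p = 0.231).

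The genes closest to Bdnf in profile were Olfm1, which encodes a secreted neuronal glycoprotein, and Slc17a7, the vesicular glutamate transporter gene of cortical neurons (distances 0.12 and 0.15). Slc17a7 had 90.8, 98.0, 19.6 and 91.4 FPKM in saline and 139.5, 105.8, 109.5 and 105.8 in morphine. Its groups did not overlap, as in 6.56% of tested genes with morphine higher, and saline replicate 3 was again far below the rest. Bdnf amounted to 0.0862 to 0.105 times the Slc17a7 FPKM in saline replicates 1, 2 and 4 and to 0.0857 to 0.110 times it in the morphine libraries, ranges that overlap almost wholly. In saline replicate 3 Bdnf amounted to 0.0418 times. Slc17a7 was named for its closeness to Bdnf over these same libraries. A like ratio in both groups follows in part from that choice and is not a separate test. With the mean level of the cortical markers as a covariate the log2 change of Bdnf was -0.091 (95% interval -0.50 to 0.32), and those of Nptx1 and Nptx2 were -0.21 and -0.26. With the striatal markers as a covariate the 3 changes were -1.49, -1.04 and -1.27 and did not pass (limma adjusted p from 0.18 to 0.361). Neither the cortical nor the striatal means of the 2 groups overlap, so both fits compare the groups at marker levels they do not share.

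**Figure D3:**
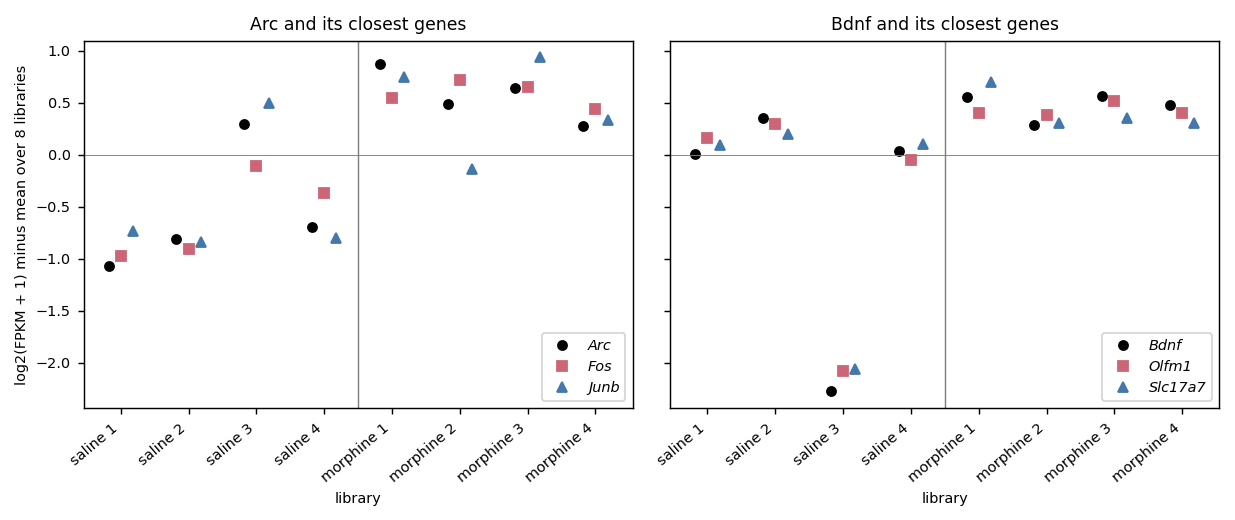
Log2(FPKM + 1) minus the mean over the 8 libraries (vertical axis) in each library (horizontal axis) for Arc with Fos and Junb and for Bdnf with Olfm1 and Slc17a7. The Arc group is low in saline replicates 1, 2 and 4 and higher in morphine. The Bdnf group is far lower in saline replicate 3 than in the other libraries. Olfm1 and Slc17a7 are also lower in saline replicates 1, 2 and 4 than in every morphine library, while Bdnf overlaps.

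Ntrk2 (ENSMUSG00000055254, chromosome 13, 58806569 to 59133970, plus strand) encodes TrkB, of which neurons make the full-length kinase and astrocytes mostly a truncated form; the gene-level value pools them over 7 annotated coding transcripts. Its FPKM was 179.9, 220.1, 171.2 and 252.3 in saline and 203.2, 263.7, 231.1 and 209.6 in morphine, and the groups overlapped. The log2 change was 0.15 (95% interval -0.17 to 0.47; limma adjusted p = 0.606). Across the fits that leave out 1 library it ran from 0.067 without saline replicate 3, the lowest library, to 0.25 without saline replicate 4. Of 15 astrocyte markers 3 fell and none rose in the same libraries, and their mean level was 6.30 to 6.66 in saline and 5.81 to 6.14 in morphine. The part of glial content in the Ntrk2 value was not tested. Other annotated genes overlap Ntrk2, Bdnf and Inhba on the opposite strand, and others overlap Ntrk2 and Homer1 on the same strand. Since no strand marking is stated, reads of the former cannot be told apart from those of the members, and strand would not separate the latter.

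Vgf and Inhba encode secreted proteins of other kinds. Vgf (ENSMUSG00000037428, chromosome 5, 137026392 to 137033351, plus strand), a granule peptide precursor induced by neurotrophins, had 62.6, 25.1, 41.1 and 13.98 FPKM in saline and 21.5, 39.1, 26.6 and 26.9 in morphine. The saline libraries held both the highest and the lowest value, and all morphine values lay between them. Vgf had the only negative change, -0.15 (95% interval -0.98 to 0.68; limma adjusted p = 0.865), and it ran from -0.51 without saline replicate 4 to 0.18 without saline replicate 1.

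Inhba (ENSMUSG00000041324, chromosome 13, 16011851 to 16031621, plus strand) encodes the subunit that forms activin A, a secreted factor that neurons make on strong activity. It had 6.11, 7.14, 6.65 and 5.83 FPKM in saline and 7.27, 8.98, 16.3 and 14.4 in morphine. It was the only member whose groups did not overlap over all 8 libraries, which was the case, with morphine higher, in 6.56% of tested genes (12.7% in either direction). The gap was narrow, since morphine replicate 1 lay just above saline replicate 2, and the highest values were those of morphine replicates 3 and 4. The means were 6.43 ± 0.582 and 11.8 ± 4.32 (SD, n = 4 each; log2 change 0.72 ± 0.22 SE), and Inhba did not pass (limma adjusted p = 0.108). It did not pass when any single library was left out (limma adjusted p from 0.0666 to 0.256). Its closest profiles were those of Dnajb5, a chaperone gene, and Cpne8 (distances 0.18 and 0.19).

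The members fell into different patterns across libraries. Saline replicate 3 was the lowest of the 8 libraries for Bdnf, Nptx1, Nptx2 and Ntrk2, the highest for Plk2, and inside the range of the others for the rest. The saline libraries varied more than the morphine libraries, relative to their mean, in 8 of the 10 members, Homer1 and Inhba being the exceptions. Without saline replicate 3, all morphine values lay above the saline values in 3 members, Arc, Inhba and Plk2, and in 9.19% of tested genes.

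**Figure D4:**
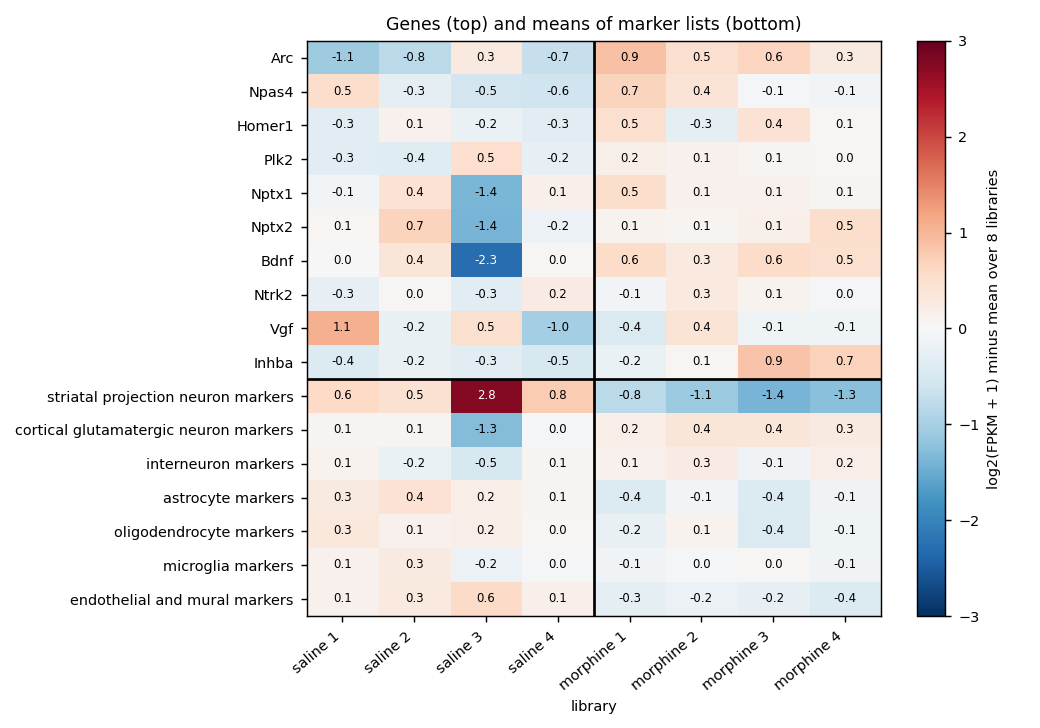
Log2(FPKM + 1) of the 10 members (upper rows) and mean level of 7 cell marker lists (lower rows) in each library (columns), each row minus its mean over the 8 libraries. Saline replicate 3 has the lowest Bdnf, Nptx1, Nptx2, Ntrk2 and cortical marker values and the highest Plk2 and striatal marker values. It also has the lowest interneuron and microglia and the highest endothelial and mural marker values.

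Genes that work with the members were read from 9 lists, and of 134 tested genes in them 1 rose, 1 fell and 132 did not pass. Among neurotrophins, their receptors and processing enzymes, 1 of 13 tested genes rose and none fell (median log2 change 0.06, and 0.14 without saline replicate 3). The gene that rose was Plat, tissue plasminogen activator, whose protease pathway can convert proBDNF to mature BDNF. Plat had 16.6, 16.8, 15.8 and 13.2 FPKM in saline and 22.2, 21.9, 24.01 and 24.2 in morphine, with no overlap (log2 change 0.54 ± 0.11 SE, limma adjusted p = 0.0391). When single libraries were left out it passed without saline replicate 3 or saline replicate 4 and did not pass without any of the other 6 (log2 change 0.47 to 0.58, limma adjusted p from 0.0452 to 0.131). Pcsk5, which encodes a proprotein convertase, had mean FPKM of 6.11 ± 3.06 and 11.99 ± 1.19 (SD, 4 saline and 4 morphine libraries), with a limma adjusted p of 0.107 that missed the threshold. Sorcs1, a sorting receptor gene, had a log2 change of -0.71 and did not pass either. The changes of Pcsk5 and Sorcs1 were 0.65 and -0.42 without saline replicate 3.

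None of 27 tested genes of the TrkB relay passed (median -0.04), and Creb1, the gene of CREB, had a log2 change of 0.27 ± 0.13 (SE; limma adjusted p = 0.275). The adaptor genes Shc1 and Shc3 had changes of -0.47 and -0.34 and did not pass. Among 12 tested partners of Npas4 and other activity-dependent regulators none passed (median 0.19). Arntl, whose product belongs to the same protein family as the Npas4 partners, had the smallest p there (9.88 ± 1.65 to 15.2 ± 1.77 FPKM, SD, n = 4 each; limma adjusted p = 0.0604). Arnt2, which encodes a dimer partner of Npas4, and Mef2c, an activity-dependent factor gene, both had changes of 0.50 and did not pass. Without saline replicate 3, where Mef2c had 71.6 FPKM and the other saline libraries 145.2 to 172.4, the change of Mef2c was 0.22 and that of Arnt2 0.59.

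No partner of Homer1 or Arc passed. Among 14 tested genes of the Homer scaffold 9 had positive changes, as had 52.0% of all tested genes, and none passed (median 0.13). Shank2 and Dlgap1, which encode scaffold proteins and had the smallest p of the 14, had changes of 0.49 and 0.75 (limma adjusted p = 0.0885 and 0.143). Their groups did not overlap, which was the case, with morphine higher, in 6.56% of tested genes. That of Dlgap1 was 0.44 without saline replicate 3 (limma adjusted p = 0.0579). Among 18 tested genes of Arc partners and AMPA receptor traffic 13 had positive changes and none passed (median 0.23). The AMPA receptor genes Gria1 and Gria3 went from 86.1 ± 17.7 to 123.5 ± 12.6 and from 60.3 ± 13.2 to 91.1 ± 14.03 FPKM (SD, n = 4 each), and the auxiliary subunit gene Cacng3 had a log2 change of 0.55 ± 0.14 (SE; limma adjusted p = 0.0625).

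The gene that fell was Plk5, a member of the polo-like kinase family to which Plk2 belongs. It had 19.0, 17.0, 24.7 and 11.5 FPKM in saline and 6.91, 4.66, 5.36 and 4.20 in morphine, well apart (log2 change -1.57 ± 0.22 SE, limma adjusted p = 0.0165). It passed in 5 of the 8 fits that leave out 1 library, and missed the threshold when saline replicate 2 or either of morphine replicates 3 and 4 was the one omitted (limma adjusted p from 0.0621 to 0.068). The other 8 tested genes of that list did not pass (list median 0.22). They include the exchange factor gene Rasgrf1, with 107.1 ± 7.01 and 136.0 ± 6.41 FPKM (SD, n = 4 each; limma adjusted p = 0.0768).

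None of 11 tested activin pathway genes passed (median 0.01, and 0.09 without saline replicate 3). The receptor genes Acvr1c and Tgfbr3 had changes of -0.50 and -0.47, and the inhibitory Smad7 0.35. None of 12 granule and peptide processing genes passed (median 0.05), with Chga at 0.44, Pcsk2 at -0.37 and Cadps2 at 0.67; without saline replicate 3 Chga was at 0.30 and Cadps2 at 0.30. Among 18 tested other effectors that activity induces, 9 had positive and 9 negative changes and none passed (median 0.03, and 0.13 without saline replicate 3). Rheb, a GTPase gene of the mTOR pathway, had the smallest p in that group (74.1 ± 12.2 to 99.8 ± 6.25 FPKM, SD, n = 4 each; limma adjusted p = 0.0927), followed by Tnfaip6 (0.72) and Lingo1 (0.62, and 0.37 without saline replicate 3).

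**Figure D5:**
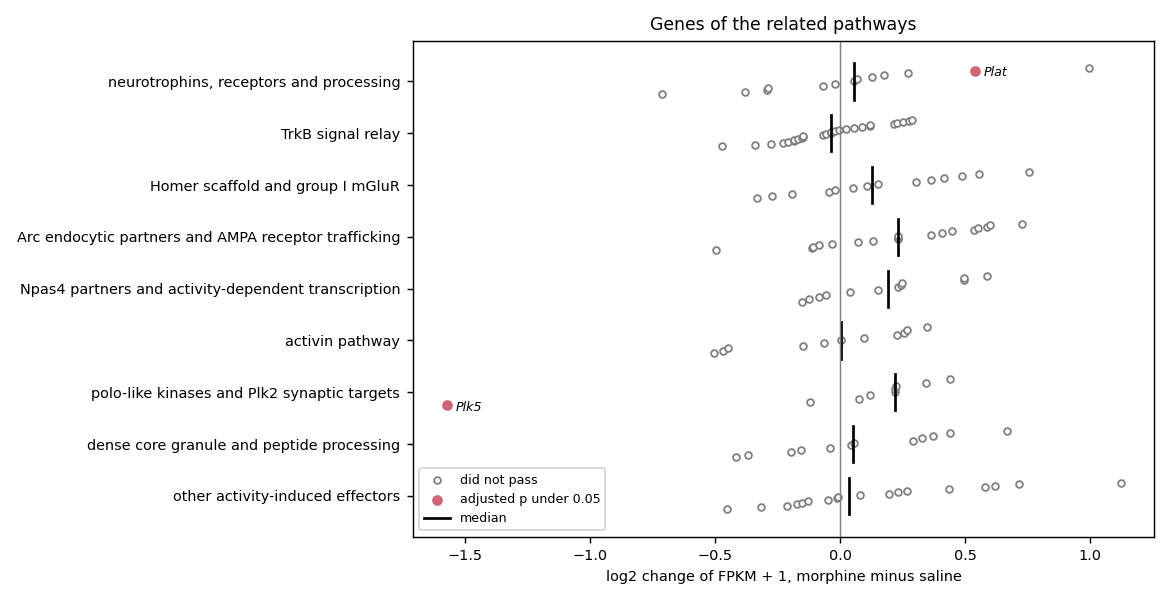
Log2 change of FPKM + 1 (horizontal axis, morphine minus saline) of every tested gene in the 9 lists of related genes (rows); filled points passed at an adjusted p under 0.05 and black bars are list medians. Only Plat, higher, and Plk5, lower, passed.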

How the data were processed

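RNA from 8 nucleus accumbens libraries was reverse transcribed from an oligo-dT primer with template switching, amplified and sequenced on an Illumina NovaSeq, per the labels' protocols. The authors deposited 1 table of FPKM values, named so in its header and given to 2 decimals. The submitters' processing notes name StringTie 1.3.1, RSEM, HISAT2, fastp 0.18.0 and Bowtie2 2.2.8, and the build mm10. What each did, which annotation was used and how strand was handled is not stated in the sources used here. FPKM falls for all genes when a few take a larger share of a library. Among 6414 low values 20.5% were whole multiples (within 0.1) of their gene's smallest value, where an even spread gives 20%, so no reads were recovered and no count model was used.

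Symbols and coordinates (1-based) came from GENCODE M21 (GRCm38), which matched 22232 of 22337 genes. The FPKM values were taken as log2(FPKM + 1), and limma 3.58.1 in R 4.3.3 was fitted to the 12536 genes that reached 1 FPKM in at least 4 of the 8 (trend, two-sided, Benjamini-Hochberg over all tested genes, threshold 0.05), without a block. The script was tested on simulated data. Alternatives were other pseudocounts, filters and scalings, robust variances, marker covariates, a replicate block and each library left out. All members were named whatever their outcome; from each related list the 3 tested genes with the smallest p, of which 2 are not reported here; the 2 closest profiles per member by root mean square distance, of which those of Arc, Bdnf, Plk2 and Inhba are given. The members and lists were chosen with earlier results of these data known.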

Additional observations from a re-analysis of the deposited data

Results flagged for a closer look

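In 20 groups of 4 libraries (10 members in 2 groups), 3 held a library whose distance to its nearest neighbour exceeded Dixon's 95% critical value as a share of the range of the group; chance gives this in about 1 in 20 groups. Plk2 had 148.7 FPKM in saline replicate 3, where the next saline library had 88.5. Nptx1 had 99.0 FPKM in morphine replicate 1, where the next morphine library had 75.1. Nptx2 had 23.8 FPKM in morphine replicate 4, where the next had 18.02.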

How the results depend on the processing

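For Arc, the log2 change was positive in each of the 18 alternatives (0.97 to 2.38). The fits with a marker covariate compare the groups at marker levels they do not share. Arc passed in only 4 of the 18, with a pseudocount of 0.5, with either marker covariate and without saline replicate 3. The number of members called higher was therefore 0 with a pseudocount of 0.1 (adjusted p of Arc 0.0503), no filter on low values (0.105), a filter of 5 FPKM (0.0518), quantile normalization (0.0689), removal of mitochondrially encoded genes (0.0529), robust variances (0.0622) and the replicate block (0.0881), and 0 to 2 when single libraries were left out. Over all genes limma called 316; it called 17 with no filter, 5 with the replicate block, 6 with the striatal and 52 with the cortical covariate, and 0 to 450 when single libraries were left out (1953 to 2715 at an unadjusted p under 0.05). Higher calls made up 41.1% of all calls, and 21.5% (of 344) once mitochondrially encoded genes were removed. Same-numbered saline and morphine libraries did not deviate together (correlation over genes from -0.20 to 0.05). For libraries of different numbers it ran from -0.09 to 0.11. The labels do not say whether the numbers pair the samples, and these correlations cannot decide it. With the striatal covariate the change reversed for Bdnf (-1.49), Nptx1 (-1.04), Nptx2 (-1.27), Ntrk2 (-0.18) and Vgf (0.24), and with the cortical covariate for Bdnf (-0.091), Nptx1 (-0.21), Nptx2 (-0.26) and Vgf (0.014); none of these passed. When single libraries were left out Vgf ran from -0.51 to 0.18, positive only without saline replicate 1. Plk2 passed only without saline replicate 3 (0.42), and had changes of 1.06 with the striatal (adjusted p = 0.0977) and 0.57 with the cortical covariate (adjusted p = 0.0568). The cause of these changes was not tested. The number of members called lower was 0 in every setting. Plat passed in 8 and Plk5 in 13 of 18 alternatives. Read depth is unknown and limits what can be said of Npas4.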

Other observations

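Some ratios within a library, chosen after their values were seen and not tested, set members against genes of particular cells. Ntrk2 amounted to 0.761 to 0.936 times the FPKM of Slc1a2, the main astrocyte glutamate transporter gene, in the saline libraries and to 1.24 to 1.47 times it in the morphine libraries, without overlap; Slc1a2 itself went from 244.2 ± 37.4 to 166.1 ± 31.7 FPKM (SD, n = 4 each; limma adjusted p = 0.0814). Plk2 amounted to 0.102 to 0.275 times the FPKM of Ppp1r1b, a striatal projection neuron gene, in saline and to 1.01 to 1.78 times it in morphine. Ppp1r1b itself went from 608.8 ± 563.9 to 80.1 ± 25.6 FPKM (SD, n = 4 each), with 1454.6 in saline replicate 3. Plk2 went from 100.6 ± 32.3 to 113.2 ± 5.11 and did not pass over all libraries, so the gap in the ratio lies mostly in Ppp1r1b. Nptx1 amounted to 0.686 to 0.710 times the FPKM of Slc17a7 in the 4 morphine libraries, to 0.709 to 0.956 times in saline replicates 1, 2 and 4, and to 1.33 times in saline replicate 3. Nrn1, which encodes a small membrane-anchored protein that activity induces, was chosen after its values were seen. It had the largest log2 change of its list, 1.12 ± 0.62 (SE), which missed the threshold (limma adjusted p = 0.343). Its FPKM went from 44.3 ± 26.6 to 71.7 ± 8.15 (SD, n = 4 each), so the saline libraries varied widely. How far saline replicate 3 moved this change is not reported here.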
